A study of Mus musculus with 18 samples.

Results

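The 39 genes described here are genes that interferons switch on, from the RNA sensors and transcription factors of the response to its antiviral effectors and antigen-processing proteins. They were taken by name, and each symbol matched 1 of the 54446 gene identifiers in the count files. RNA had been measured by poly(A) sequencing in 18 libraries of mouse embryoid bodies, the aggregates in which embryonic stem cells differentiate in suspension. All libraries came from C57BL/6 cells after 7 days in embryoid body medium without feeders, and all belonged to a CKO line, in which Mettl14 or else Mettl3 can be deleted conditionally. These genes encode the partner subunits of the enzyme that writes N6-methyladenosine into mRNA. Each line had a control, a knockout, and a knockout given 5 µM of an inhibitor, with 3 libraries in each of the 6 groups. The Mettl14 knockout received GSK343, an inhibitor of the H3K27 methyltransferase EZH2, and the Mettl3 knockout received GSK-J4, an inhibitor of the H3K27 demethylases KDM6A and KDM6B. The untreated knockouts were kept in DMSO per the labels' protocols, and no control library is labelled with an inhibitor, so the effect of either compound without a knockout was not measured. How the deletion was induced, whether a line is 1 clone and whether replicates were separate cultures is not stated by the labels. Each p-value therefore measures only the spread between these libraries, which may be technical. The design text names the question of how the methyltransferase inhibitor acts on the expression changes of the Mettl14 knockout.

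Interferons are secreted by cells that sense foreign nucleic acid. Type I interferons bind the receptor IFNAR1/IFNAR2, whose kinases JAK1 and TYK2 phosphorylate STAT proteins such as STAT2. STAT2 and IRF9 act in the complex ISGF3, which binds the interferon-stimulated response element in the promoters of its targets. Pluripotent stem cells are known for a weak interferon response that is gained as they differentiate. Many members of the set also have a basal level in unstimulated fibroblasts and mesenchymal cells.

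The core of the response element was searched as GAAANNGAAA on both strands, in the RefSeq promoter windows of build GRCm38.p6, which run from 250 bases before to 50 bases after each start. A window was matched for 31 of the 39 members. The core stood in the window of 14 of these 31 members (45.2%), against 1079 of 27025 genes with a window (3.99%). The following stretches are shown because they belong to the 6 members, of the 14 with the core, that had the highest median level over the 18 libraries. They read 5′ to 3′ on the strand of the gene, and capitals mark the core, which overlaps itself in the tandem runs.
Ifitm3, chr7:141010716-141010742, minus strand, downstream of the start: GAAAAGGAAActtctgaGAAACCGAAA
Eif2ak2, chr17:78882545-78882554, minus strand, downstream of the start: GAAAACGAAA
Ddx58, chr4:40239814-40239823, minus strand, downstream of the start: TTTCGATTTC
Stat2, chr10:128270256-128270305, plus strand, upstream of the start: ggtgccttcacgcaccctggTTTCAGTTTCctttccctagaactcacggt
Bst2, chr8:71537567-71537622, minus strand, upstream of the start: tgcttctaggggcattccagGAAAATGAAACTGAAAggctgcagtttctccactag
Isg15, chr4:156200855-156200916, minus strand, upstream of the start: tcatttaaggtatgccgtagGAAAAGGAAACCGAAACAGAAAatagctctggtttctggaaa
The next stretches were chosen after their values were seen, since the results below turn on these genes.
Ifit1, chr19:34640765-34640833, plus strand, upstream of the start: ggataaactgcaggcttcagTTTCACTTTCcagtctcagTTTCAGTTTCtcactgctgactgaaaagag
Ifit3, chr19:34583353-34583436, plus strand, upstream of the start: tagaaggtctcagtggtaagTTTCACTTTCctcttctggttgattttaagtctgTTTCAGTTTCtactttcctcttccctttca
Gbp3, chr3:142559979-142560034, plus strand, upstream of the start: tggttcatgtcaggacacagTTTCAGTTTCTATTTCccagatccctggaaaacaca
Ifit1 and Ifit3 each hold a separated pair of cores, Isg15 holds 3 overlapping ones, and Bst2 and Gbp3 hold an overlapping pair. A match is a description of these letters and no evidence of binding.

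Library totals ran from 721853 counts in replicate 3 of the Mettl14 knockout with GSK343 to 32540164 in replicate 1 of the Mettl3 knockout. A second shallow library was replicate 3 of the Mettl14 knockout, with 1303697 counts. The targeted genes do not check the labels, since counts over a whole gene can come from a transcript with a deleted part. Mettl14 changed by 0.21 ± 0.38 (log2, SE) in its knockout and Mettl3 by -0.53 ± 0.63 in its knockout, both with an adjusted p of 1 in edgeR's quasi-likelihood test. The cells carried markers of fibroblasts and mesenchyme, whose 11 genes summed to between 8256 and 15866 scaled CPM (counts per 1000000 of the library total) in the 15 libraries without GSK-J4. The GSK-J4 libraries stood apart, with sums of 575 to 1240 for the same list and with 0.678 to 0.957% of their counts from the mitochondrial chromosome, against 3.06 to 4.87% elsewhere. The 18 immune cell markers summed to between 8.06 and 232 scaled CPM, and each group's range overlapped the others. The endothelial list summed to 32.6 to 42.0 scaled CPM with GSK-J4 and to 1.93 to 19.9 in the rest, and the epithelial list to 12.48 to 145 against at most 10.4. The neural list separated the lines, with 23.7 to 82.3 in the Mettl14 line and 111 to 196 in the Mettl3 line without GSK-J4. With GSK-J4 it had 58.4 to 79.0. Embryonic stem cell markers summed to at most 81.8, mesoderm and heart to 57.8 and endoderm to 13.2, each highest in a GSK-J4 library. In bulk RNA, fewer cells of a type and less RNA per cell cannot be told apart.

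Levels below are scaled CPM, relative to a library's total after correction with its TMM factor. They were uneven across the set. Over the 15 libraries without GSK-J4, 12 members had a median of at least 10 scaled CPM, 10 members lay between 2 and 10, and 17 lay under 2. Ifitm3, a membrane protein that restricts viral entry, was the most abundant member, with a median of 114 scaled CPM. Per kilobase of exon, the scale on which genes can be compared, its median was 168 scaled CPM, followed by 11.6 for Bst2 (tetherin), 9.88 for Eif2ak2 (the double-stranded RNA-activated kinase PKR) and 5.90 for Trim25, a ubiquitin ligase that acts on RIG-I. Oas2 had no count in any of the 18 libraries.

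**Figure D1:**
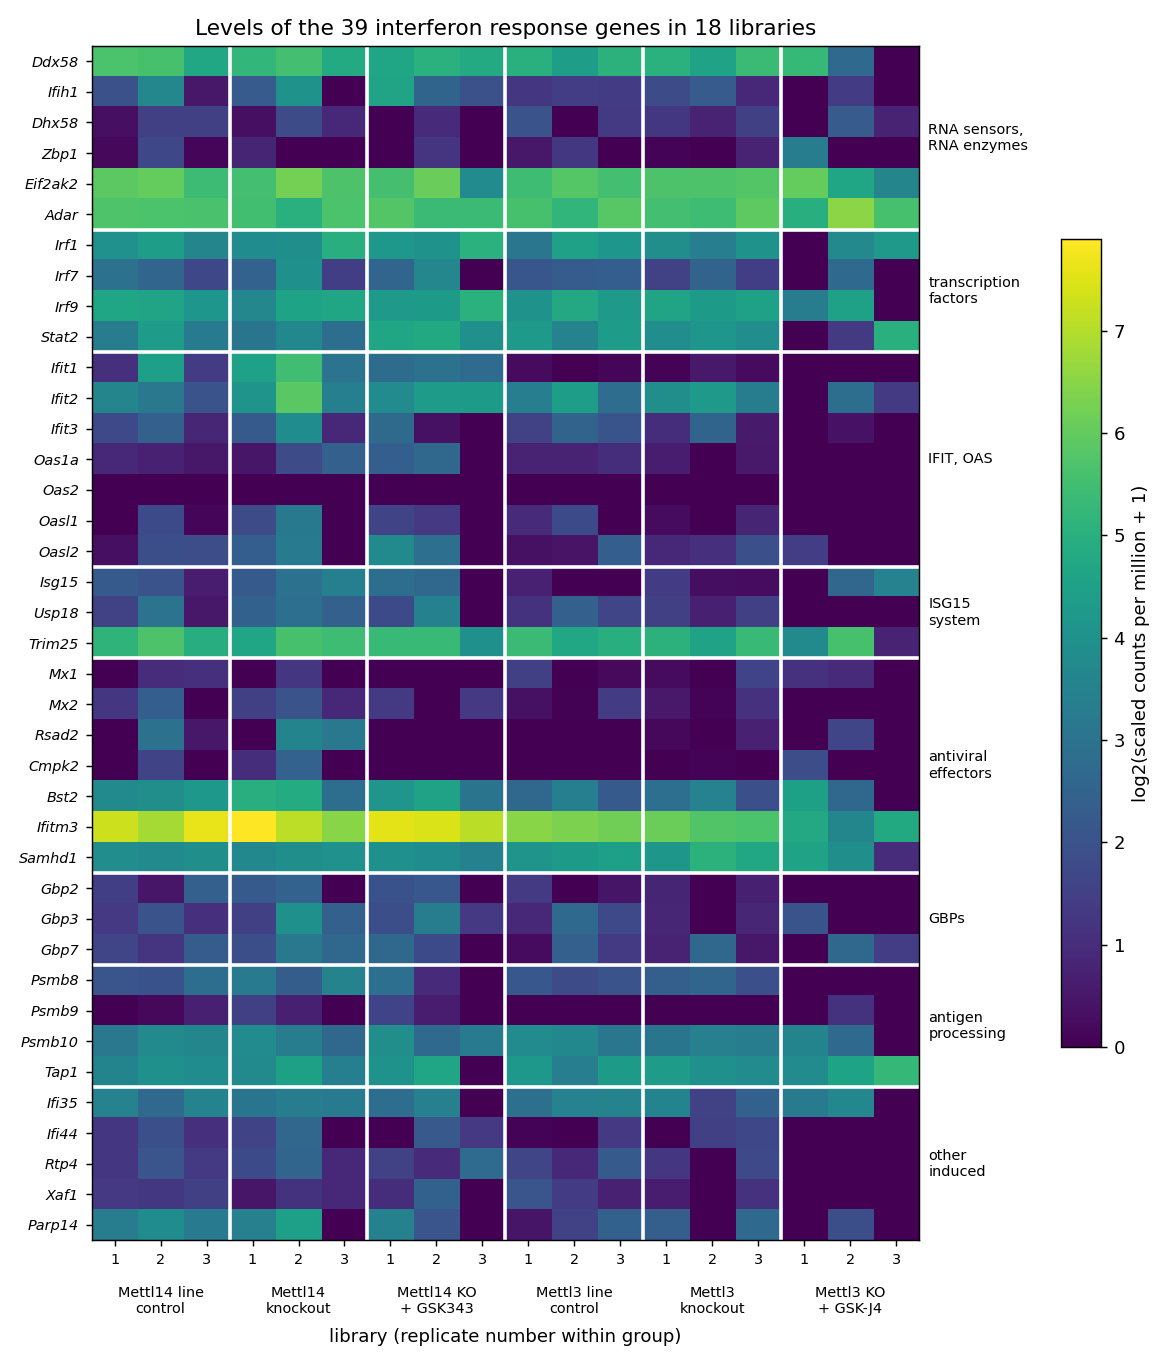
Heat map of the 39 genes (rows, grouped by role) in the 18 libraries (columns, grouped by condition and numbered by replicate), coloured by log2(scaled CPM + 1). Ifitm3 is the brightest row and Oas2 is dark throughout; the columns with the most members at 0 are GSK-J4 replicates 3 and 1, with 27 and 23, and GSK343 replicate 3, with 21.

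Many members sat near the limit of detection. Only 5 members had a count in all 18 libraries, and 12 had one in all 15 without GSK-J4. The number of members without a count was 6, 1 and 3 in the Mettl14 line controls, 3, 2 and 11 in the Mettl14 knockout, and 7, 5 and 21 with GSK343. It was 4, 10 and 7 in the Mettl3 line controls, 4, 12 and 3 in the Mettl3 knockout, and 23, 15 and 27 with GSK-J4. A count of 0 allows up to 3 counts, which correspond to between 0.0923 and 4.36 scaled CPM depending on the library. When every library was thinned to 721853 counts, the GSK-J4 libraries lacked 23, 17 and 31 members, against 12 to 17 in the other 6 libraries of the Mettl3 line. At that depth the Mettl14 knockout libraries lacked 6, 5 and 13 members and their controls 12, 6 and 13. Such intervals and floors cover counting error only.

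**Figure D2:**
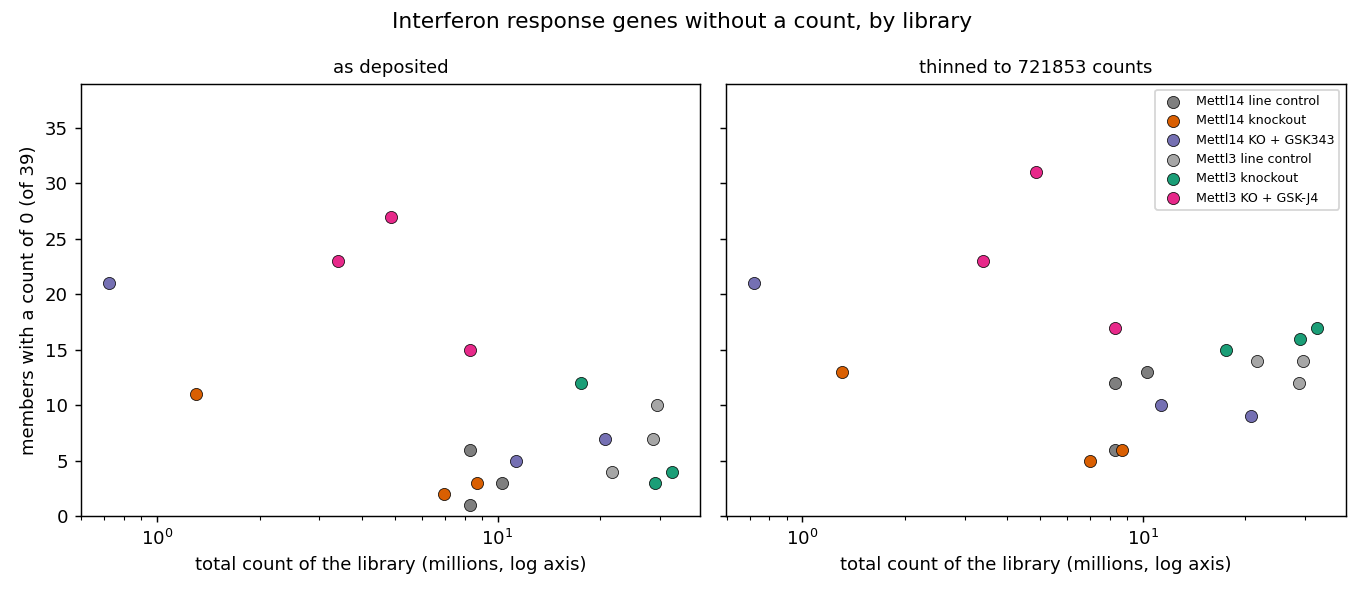
Number of the 39 members with a count of 0 (vertical axis) against the total count of each library (horizontal axis, log scale), as deposited on the left and after thinning to 721853 counts on the right; each point is 1 library, coloured by group. After thinning, the GSK-J4 libraries lie at 23, 17 and 31 members and the other 6 libraries of their line at 12 to 17.

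The sum over the 39 members was 508, 560 and 487 scaled CPM in the Mettl14 line controls, 596, 729 and 435 in the Mettl14 knockout, and 593, 589 and 374 with GSK343. In the Mettl3 line it was 387, 392 and 396 in the controls, 380, 352 and 388 in the untreated knockout, and 274, 308 and 187 under GSK-J4. The 3 groups of the Mettl14 line overlapped each other. The GSK-J4 libraries all lay below the 6 others of their line. Ifitm3 alone made up 12.8 to 40.1% of the sum in the 15 libraries without GSK-J4 and 3.67 to 14.3% with it. Among genes at 5 scaled CPM or more, members had a higher median coefficient of variation between replicates than all genes, in groups not matched further on level. It was 44.2% in the Mettl14 knockout, against 27.2% for all genes, and 26.8% against 19.4% in its controls. In the Mettl3 line these values were 25.7% against 17.3% in the controls, 23% against 18.3% in the knockout and 95.6% against 48.3% with GSK-J4.

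Of the 6 RNA sensors and RNA-activated or RNA-editing enzymes, Ddx58, Eif2ak2 and Adar were expressed in each of the 15 libraries without GSK-J4. Ddx58 (RIG-I), which senses uncapped viral RNA, had 49.6, 47.5 and 25.0 scaled CPM in the Mettl14 line controls, 36.3, 45.8 and 27.2 in the untreated knockout and 24.6, 31.9 and 27.6 under GSK343. It had 31.2, 19.8 and 32.5 in the Mettl3 line controls, 32, 22.3 and 40.9 in the untreated knockout, and 37.9, 5.55 and 0 under GSK-J4. Its GSK-J4 libraries thus ranged from the level of the untreated knockout to no count. Eif2ak2 ranged from 41.4 to 75.6 scaled CPM in the 15 libraries without GSK-J4 apart from 13.1 in the shallowest, and had 64.3, 23.9 and 11.1 with GSK-J4. Adar, which edits adenosine to inosine in double-stranded RNA, ranged from 31.5 to 59.7 without GSK-J4 and was at 30.2, 90.0 and 46.9 with it. Ifih1 (MDA5, a sensor of long double-stranded RNA) spread from 0 to 23.5 in the Mettl14 line and from 0.883 to 3.82 in the controls and untreated knockout of the Mettl3 line. Dhx58 (LGP2) and Zbp1, a Z-form nucleic acid sensor, had medians of 0.918 and 0.102 in the 15 libraries.

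Of the transcription factors, Irf9 and Stat2, the DNA-binding and activating parts of ISGF3, were present in all 15 libraries without GSK-J4. Irf9 had a median of 21.8 scaled CPM there, and 9.11, 21.7 and 0 with GSK-J4. Its exons overlap those of Rnf31 on the same strand, so part of its counts is uncertain. Stat2 had 8.86, 19.1 and 8.67 scaled CPM in the Mettl14 line controls, 7.46, 11.8 and 6.15 in the untreated knockout, and 23.8, 26.5 and 14.6 under GSK343. All 3 GSK343 libraries lay above the 3 of the untreated knockout, while the controls overlapped both. How many of all genes separate between groups in this way was not counted, here or for the members below. In the Mettl3 line Stat2 had 17.9, 10.7 and 19.7 in the controls, 13.6, 16.8 and 13.6 in the untreated knockout, and 0, 1.51 and 31.2 under GSK-J4. Irf1 had a median of 15.1 in the 15 libraries, and Irf7, the factor that amplifies interferon-alpha genes, 4.10.

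The IFIT and OAS families hold RNA-binding effectors and enzymes that activate RNase L. Their 7 genes summed to 21.1 ± 15.8 scaled CPM (SD, n = 3) in the Mettl14 line controls, 68.0 ± 58.1 in the knockout and 35.9 ± 9.82 with GSK343. The sums were 18.7 ± 8.33, 18.3 ± 5.65 and 3.25 ± 2.87 in the Mettl3 line control, knockout and GSK-J4 groups. Ifit1 (chr19:34640871-34650009), which binds RNA lacking the cap methylation of host mRNA, had 1.12, 20.9 and 1.63 scaled CPM in the Mettl14 line controls. It had 21.9, 43.5 and 7.03 in the Mettl14 knockout and 5.94, 6.89 and 5.82 with GSK343. In the Mettl3 line it stayed at or below 0.456 in each of the 9 libraries, which is at most 8 counts, and had no count with GSK-J4. Ifit2 (chr19:34550694-34576419) had 11.1, 7.94 and 3.06 in the Mettl14 line controls, 16.1, 57.8 and 9.66 in the untreated knockout, and 13.0, 19.3 and 18.9 under GSK343. In the Mettl3 line it had 9.36, 20.2 and 6.04 in the controls, 14.1, 18.2 and 8.97 in the untreated knockout, and 0, 6.26 and 1.52 under GSK-J4. Both genes were highest in replicate 2 of the Mettl14 knockout. Ifit3 was also highest there, at 13.2, against a median of 2.37 in the 15 libraries. The window of Ifit2 held no match to the core of the response element, unlike those of Ifit1 and Ifit3. Oasl1 and Oasl2 (oligoadenylate synthetase-like proteins) had medians of 0.747 and 2.65, and Oas1a of 0.688. Members of these families have close copies in the genome, and the sources used here do not say how reads were shared between copies.

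**Figure D3:**
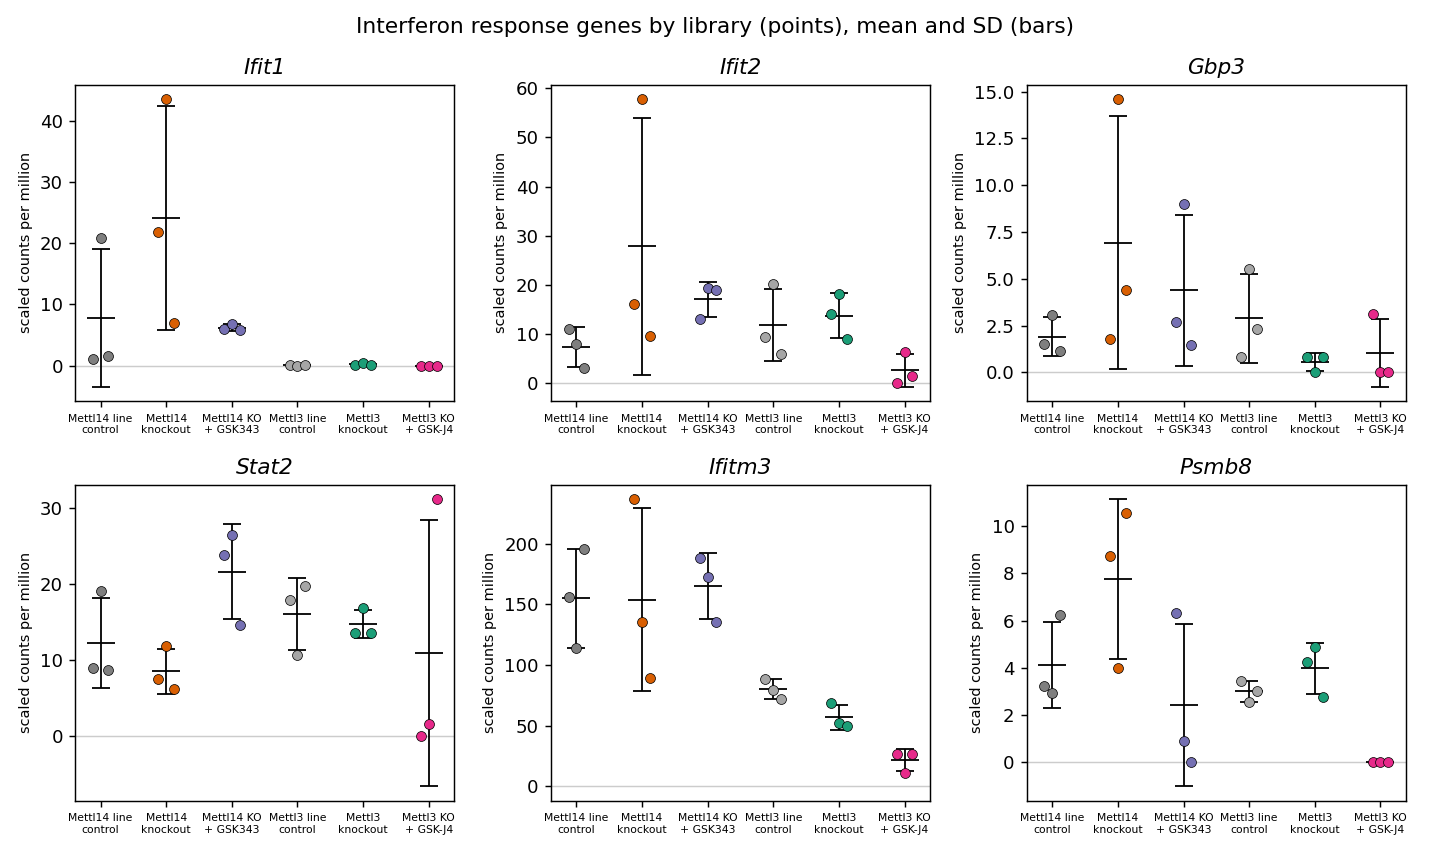
Scaled CPM of Ifit1, Ifit2, Gbp3, Stat2, Ifitm3 and Psmb8 in each library (points, 3 per group), with the mean (long dash) and SD (bars) of each of the 6 groups. Ifit1, Ifit2 and Gbp3 peak in replicate 2 of the Mettl14 knockout, at 43.5, 57.8 and 14.6, and Psmb8 is at 0 in all 3 GSK-J4 libraries.

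The ISG15 system was grouped with the ligase Trim25, which had a median of 33.9 scaled CPM in the 15 libraries. Isg15 and Usp18 had medians of 1.57 and 2.16 there. Isg15, a ubiquitin-like modifier that is attached to proteins during the response, had 3.74, 3.07 and 0.510 scaled CPM in the Mettl14 line controls, 3.73, 6.76 and 9.66 in the untreated knockout, and 6.24, 5.23 and 0 under GSK343. It had 0.642, 0 and 0 in the Mettl3 line controls, 1.57, 0.228 and 0.204 in the untreated knockout, and 0, 5.05 and 10.3 under GSK-J4. Its 2 highest values of the Mettl3 line were GSK-J4 libraries, and the third had no count, so that the groups overlapped. Usp18, the protease that removes ISG15 and dampens the receptor, had 1.24, 4.41 and 2.16 in the Mettl3 line controls, 1.85, 0.627 and 1.80 in the knockout, and no count in the 3 GSK-J4 libraries.

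Among the antiviral effectors, Ifitm3 (chr7:141009586-141010770) separated the lines and the GSK-J4 group. It had 156, 114 and 195 scaled CPM in the Mettl14 line controls, 237, 136 and 89.6 in the untreated knockout, and 188, 172 and 135 under GSK343. It had 88.3, 79.7 and 71.7 in the Mettl3 line controls, 68.6, 52.5 and 49.6 in the untreated knockout, and 26.4, 11.3 and 26.8 under GSK-J4. The 3 groups of the Mettl14 line overlapped, while the 3 of the Mettl3 line did not. Samhd1, which depletes the nucleotides that viral reverse transcription needs, was the steadiest effector in the Mettl14 line, at 10.2 to 14.9, and had 22.3, 14.2 and 1.01 with GSK-J4. Bst2, which tethers budding virus to the cell, had 12.8, 13.8 and 17.6 in the Mettl14 line controls and 5.42, 9.57 and 3.75 in those of the Mettl3 line. Rsad2 (viperin) had 0, 6.91 and 0.408 in the Mettl14 line controls, 0, 10.9 and 7.91 in the knockout, and no count in the 3 GSK343 libraries. In the Mettl3 line it was at 0 in 6 libraries and at most 2.12. Its neighbour Cmpk2 (a nucleotide kinase) and the dynamin-like GTPase Mx1 had medians of 0 in the 15 libraries without GSK-J4.

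The guanylate-binding proteins, GTPases that attack pathogen membranes, summed to 6.49 ± 2.52 scaled CPM in the Mettl14 line controls, 15.0 ± 10.6 in the knockout and 9.07 ± 6.87 with GSK343. Gbp3 (chr3:142560026-142573209) had 1.5, 3.07 and 1.12 in the Mettl14 line controls, 1.80, 14.6 and 4.39 in the untreated knockout, and 2.7, 9 and 1.46 under GSK343. It had 0.826, 5.51 and 2.33 in the Mettl3 line controls and 0.8, 0 and 0.815 in the knockout, which did not overlap. The immunoproteasome subunits and the peptide transporter, which supply peptides to MHC class I, summed to group means between 25.7 and 32.3 scaled CPM in all 6 groups. That sum hid unequal members. Psmb8 (chr17:34197721-34201454) had 3.44, 2.55 and 3.04 in the Mettl3 line controls, 4.25, 4.90 and 2.79 in the knockout, and no count with GSK-J4, where 3 counts would be 0.719, 0.303 and 0.506. Tap1, a subunit of the transporter encoded beside it, had 12.9, 23.1 and 37.3 with GSK-J4 against 9.47 to 19.6 in the other 6 libraries of the line. Tap1 and Psmb9 overlap on opposite strands, as do Psmb8 and Gm20496, and the sources used here do not give the strand setting of the counting. The exons of 16 members overlap those of another gene in this way or on the same strand. Rtp4, Xaf1 and Ifi44, of the remaining induced genes, had no count in any GSK-J4 library, and Parp14 (an ADP-ribosyltransferase) had 2.73 in 1 of them.

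**Figure D4:**
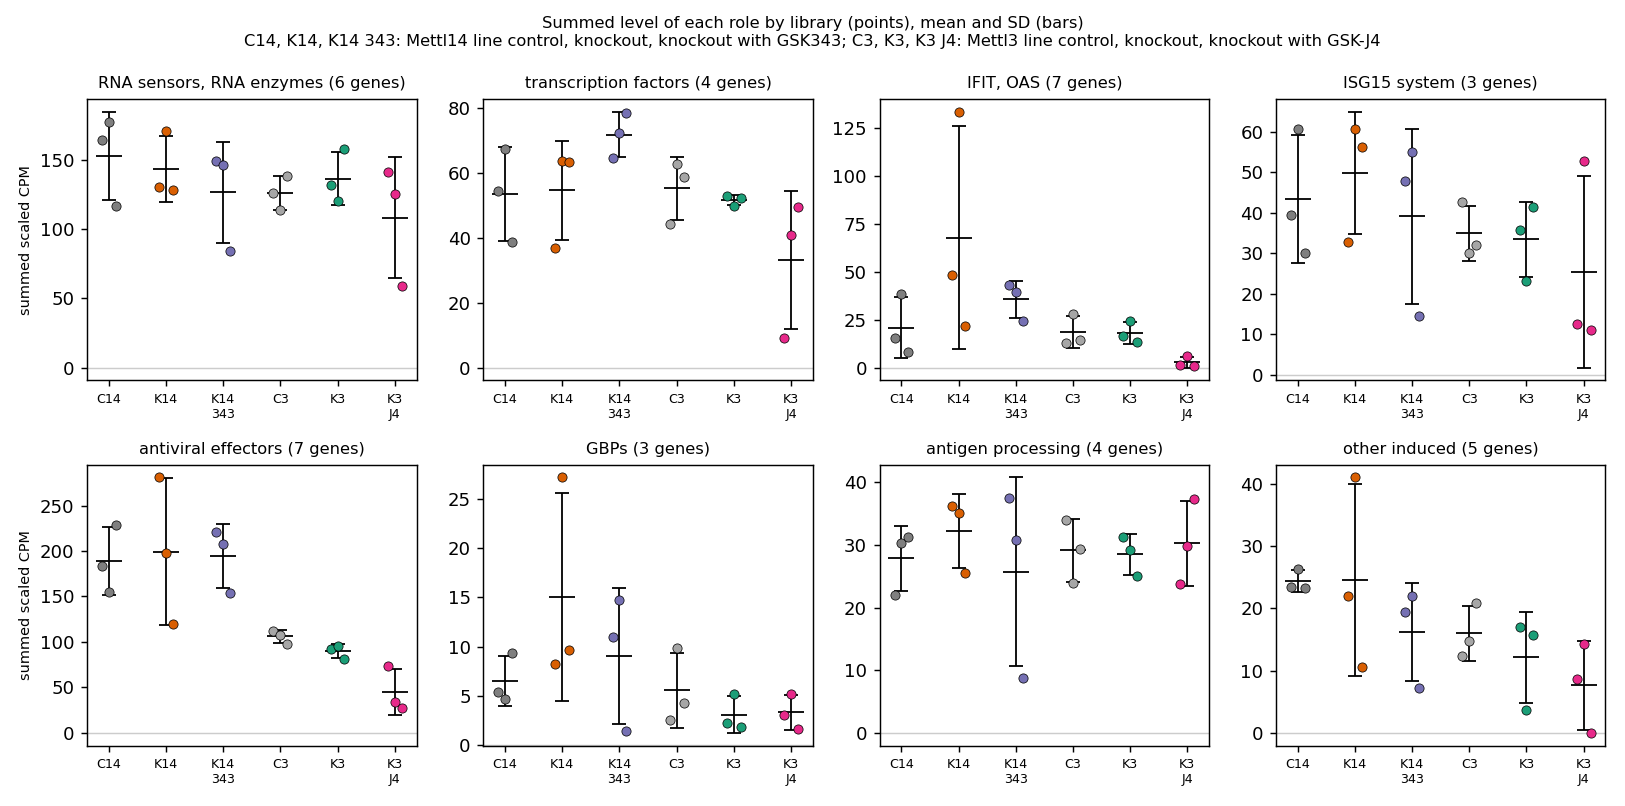
Summed scaled CPM of each role of the set in every library (points), with the mean (long dash) and SD (bars) of the 6 groups of 3 libraries. The IFIT and OAS panel has its highest point in the Mettl14 knockout and its lowest values with GSK-J4, while the antigen-processing panel keeps similar means in all 6 groups.

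Against its control, the Mettl14 knockout had higher estimates for most members, but no member passed the test. Of the 34 members with enough counts to be tested, 26 had a positive estimate and 8 a negative one, where 51.7% of all genes had a positive one, and none had an adjusted p under 0.05 (edgeR, Benjamini-Hochberg over 13882 genes). The share of all tested genes called was 0%, with 206 genes at an unadjusted p under 0.05, and DESeq2 and limma voom likewise called 0 genes. Members at an unadjusted p under 0.05 numbered 2. The median change was 0.51 on the log2 scale for the members and 0.01 for all tested genes. Positive estimates numbered 6 of 6 tested IFIT and OAS genes, 3 of 3 in the ISG15 system with Trim25, 3 of 3 guanylate-binding proteins and 5 of 5 tested antiviral effectors. They numbered 2 of 5 sensors, 2 of 4 transcription factors, 2 of 3 tested antigen-processing genes and 3 of 5 other induced genes. The median log2 change was 1.74 for the IFIT and OAS genes and 1.14 for the guanylate-binding proteins, but only 0.18 for the antiviral effectors. Ifitm3 had means of 155 scaled CPM in the control and 154 in the knockout. With library totals alone as scaling, the split over the 34 members was 22 positive and 12 negative, and it was not recounted by role. The counts by role were also not redone without replicate 2 of the knockout. Ifit2 had the smallest p, with a log2 change of 1.99 ± 0.56 (SE, n = 3 against 3), an unadjusted p of 0.0019 and an adjusted p of 1 in edgeR. Gbp3 followed with 1.91 ± 0.88, Ifit1 with 1.69 ± 0.82 and Isg15 with 1.44 ± 0.90, each with an adjusted p of 1 in edgeR. The ranges of these 4 genes overlapped between knockout and control. Replicate 2 of the knockout was the highest of its group for 26 of the 39 members, replicate 2 of the control for 20 and replicate 2 of the GSK343 group for 18. In each of these 3 groups no other replicate was highest for as many members. How often each replicate was highest over all genes was not counted, so a trait of the whole library is not separated from one of the members. Replicate 3 of the knockout and of the GSK343 group were the shallow libraries, with 11 and 21 members without a count. A source shared by the libraries numbered 2 was not tested. Without replicate 2 of the knockout the members' median became -0.06, Ifit2 had a change of 0.86 and Ifit1 one of 0.97. Ifit1 had a change of 4.16 without replicate 2 of the control and of 1.17 without replicate 1.

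GSK343 in the Mettl14 knockout, compared with the untreated knockout, gave no call among the 34 tested members either, where 2 of 13882 genes (0.0144%) were called. Estimates were positive for 9 members and negative for 25, with a median of -0.32 against -0.04 for all tested genes, and 3 members had an unadjusted p under 0.05. Rsad2 was at 0 in the 3 GSK343 libraries. Set to 3 counts per library, its mean was at least 3.93-fold below that of the untreated knockout (edgeR adjusted p 0.561). The untreated knockout had 0, 10.9 and 7.91 scaled CPM, so the groups overlapped. Without a filter on low counts the same gene had an adjusted p of 0.00466 in edgeR. Stat2 was higher by 1.35 ± 0.48 (edgeR adjusted p 0.67), with no overlap between the groups. Ifit1 had a change of -1.99 ± 0.86 (edgeR adjusted p 0.84), again without overlap, and Psmb8 one of -1.36 ± 0.87 (edgeR adjusted p 0.949). The gap of Ifit1 was narrow, from 6.89 scaled CPM with GSK343 to 7.03 in the untreated knockout, which was 8 counts in its shallow replicate 3. The share of all genes without overlap was not counted in any comparison. DESeq2 and limma voom called 0 members, and 56 and 19 genes in all. Without replicate 2 of the untreated knockout the members' median was -0.01, and without replicate 3 of the GSK343 group it was -0.07.

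Set against the control, the Mettl14 knockout with GSK343 also had no member called, against 25 of all genes (0.18%). Positive and negative estimates numbered 19 and 15, with a median of 0.16 against -0.01 for all tested genes, and 2 members had an unadjusted p under 0.05. The mean of Rsad2 was at least 1.53-fold lower (edgeR adjusted p 0.734). Its control libraries had 0, 6.91 and 0.408 scaled CPM, so the groups overlapped. Ifit2 was at 1.21 ± 0.57, Oas1a at 2.47 ± 1.22 and Stat2 at 0.90 ± 0.46, each with an adjusted p of 1 in edgeR. Ifit2 had 13.0 to 19.3 scaled CPM against 3.06 to 11.1 in the control. DESeq2 and limma voom called 0 members, and 70 and 65 genes in all. The members' median turned to -0.05 without replicate 2 of the GSK343 group. These 3 comparisons share libraries in pairs, so a gene high in the untreated knockout tends to be counted up in the first and down in the second.

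No member passed the test between the Mettl3 knockout and its control. Of 33 tested members, 16 had positive and 17 negative estimates, with a median of -0.03 against -0.01 for 16782 genes, and none was called, against 0% of all genes. No member had an unadjusted p under 0.05, and 336 genes of all did. DESeq2 and limma voom called 0 members, and 5 and 6 genes in all. Ifitm3 had the smallest p, with -0.49 ± 0.33 (edgeR adjusted p 1), and its groups did not overlap. How many of all genes did not overlap was not counted. Gbp3 had -2.40 ± 2.21, Xaf1, a proapoptotic zinc finger protein, -1.65 ± 2.00 and Oasl1 -1.82 ± 2.32, each with an adjusted p of 1 in edgeR. The biological coefficient of variation of this line's fit, which includes the GSK-J4 libraries, was 0.843, against 0.394 in the Mettl14 line.

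With GSK-J4, 2 members fell against the untreated Mettl3 knockout, Ifitm3 and Psmb8, among 33 tested. In the same comparison 2210 of 16782 genes (13.2%) were called, 688 higher and 1522 lower, so the share of members called lay below that of all genes. Estimates were positive for 9 members and negative for 24. The fitted median was -0.94, or -0.56 with the 8 tested members at 0 in the GSK-J4 group set to their bound, against -0.06 for all tested genes. Of these, Oas1a, Oasl1 and Gbp2 were set to no change, since their untreated knockout means lay under the floor of 3 counts. Ifitm3 fell by 1.36 ± 0.34 on the log2 scale (edgeR adjusted p 0.0227). Its call was lost without replicate 1 of the untreated knockout (edgeR adjusted p 0.0974), with limma voom (adjusted p 0.0967), with scaling by library totals alone (edgeR adjusted p 0.0532) and with only the compared groups in the fit (edgeR adjusted p 0.0918). Psmb8 was at least 7.81-fold lower (edgeR adjusted p 0.0267), and that call was lost when any of the 6 control and untreated knockout libraries was left out, at edgeR adjusted p of 0.067 to 0.11. It was also lost without a low-count filter (edgeR adjusted p 0.0795), with the replicate number as a block (0.0846) and with only the compared groups in the fit (0.0776). Usp18 was at least 2.80-fold lower in its mean (edgeR adjusted p 0.0736) and Rtp4, a chaperone of receptor trafficking, at least 2.44-fold lower in its mean (edgeR adjusted p 0.139). Usp18 had 1.85, 0.627 and 1.80 scaled CPM in the untreated knockout, while 3 counts in GSK-J4 replicate 1 would be 0.719. Rtp4 had 1.385, 0 and 2.344 scaled CPM in the untreated knockout, so its groups overlapped. Without replicate 2 of the GSK-J4 group 4 members were called in this comparison and 4 against the control, while the calls over all genes rose to 3099 and 2818. The 5 tested IFIT and OAS genes all had negative estimates and none passed. Ifit3 had 0, 0.303 and 0 scaled CPM against 1.05, 4.79 and 0.476 (edgeR adjusted p 0.184), a GSK-J4 level under the floor of 3 counts, so no size is given. Ifit2 had -2.32 ± 1.14 (edgeR adjusted p 0.205).

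Against the control of the Mettl3 line the GSK-J4 group gave the same 2 calls, both lower, with 1928 of all genes called (11.5%, 545 higher and 1383 lower). Positive and negative estimates numbered 8 and 25, with a fitted median of -0.96, or -0.65 with members at 0 set to their bound, against -0.08 for all tested genes. Ifitm3 fell by 1.86 ± 0.35 (edgeR adjusted p 0.00515) and passed in each of 19 alternative analyses. Psmb8 was at least 5.91-fold lower (edgeR adjusted p 0.0344), and lost its call without any of the 6 control and untreated knockout libraries, at edgeR adjusted p of 0.0725 to 0.124. It also lost it with limma voom (adjusted p 0.0634), without a low-count filter (edgeR adjusted p 0.0995), with the replicate block (0.101) and with only the compared groups (0.0853). Usp18 was at least 5.11-fold lower (edgeR adjusted p 0.0578) and Rtp4 at least 4.40-fold lower (edgeR adjusted p 0.113). Both comparisons share the GSK-J4 libraries. The choice of scaling mattered for the whole transcriptome. With library totals alone the median of all genes moved from -0.06 to 0.19 against the knockout and from -0.08 to 0.18 against the control. The share of calls that were higher moved from 31.1 to 49.8% and from 28.3 to 48.7%. Under that scaling 23 and 25 of the 33 members had negative estimates, against 24 and 25 with TMM. The marker and mitochondrial shifts of the GSK-J4 libraries given above moved with these falls. All 11 fibroblast markers had negative estimates against the knockout and against the control, with medians of -3.56 and -3.38 on the log2 scale. Of these, 10 were called lower against the knockout and 9 against the control. Their part in the members' result was not tested.

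**Figure D5:**
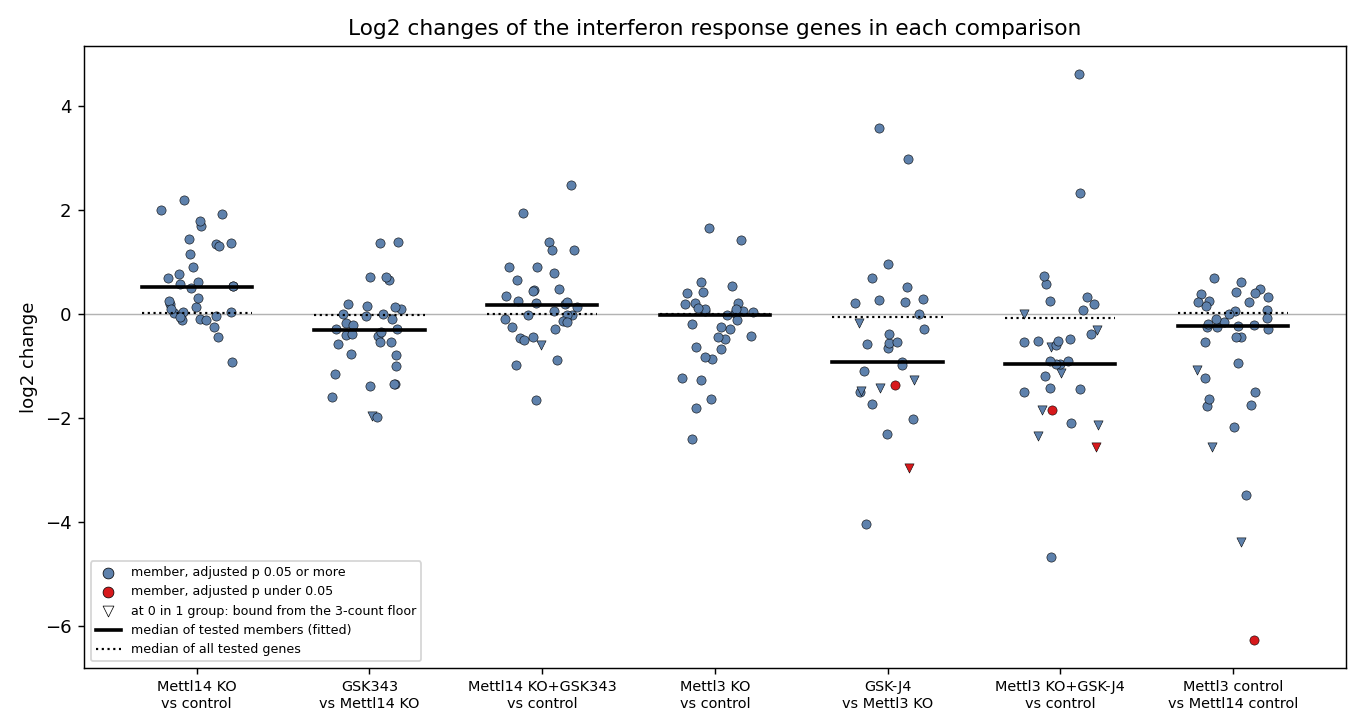
Log2 change of each tested member (points) in 7 comparisons, with the fitted median of the members (solid line) and of all tested genes (dotted line); red marks an edgeR adjusted p under 0.05. Triangles are members at 0 in 1 group, drawn at the bound from 3 counts per library, and members at or under that floor in both groups are left out; the red points are Ifitm3 and Psmb8 with GSK-J4 and Ifit1 between the controls.

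Between the controls, the Mettl3 line was lower than the Mettl14 line for Ifit1, 1 call among 38 tested members, where 145 of 16326 genes (0.888%) were called, 25 higher and 120 lower. Estimates were positive for 14 members and negative for 24, with a median of -0.23 against 0.01 for all tested genes. Ifit1 had 9, 163 and 16 counts in the Mettl14 line controls and 4, 0 and 3 in those of the Mettl3 line, whose totals were larger. Its log2 difference was -6.27 ± 1.38 (edgeR adjusted p 0.0281), and its size is poorly determined, since the Mettl3 line controls lay about the floor of 3 counts. Without replicate 2 of the Mettl14 line control it was -3.77, with an edgeR adjusted p of 0.485. The call was also lost without replicate 2 of the Mettl14 knockout, which shares the fit (edgeR adjusted p 0.0764), and without any of the 3 Mettl3 line controls (edgeR adjusted p 0.0988 to 0.18). Ifitm3 differed by -0.96 ± 0.33 (edgeR adjusted p 0.37) and its groups did not overlap. Rsad2 was at least 21.1-fold lower in the Mettl3 line controls (edgeR adjusted p 0.42) and Cmpk2 at least 5.90-fold lower (edgeR adjusted p 0.731), both mainly through replicate 2 of the Mettl14 line control, at 6.91 and 2.05 scaled CPM. The line and any difference in how its libraries were made cannot be told apart. Of 41 tested cell type markers none was called between the controls. In the Mettl3 line controls, 9 of 11 fibroblast markers had negative estimates and all 5 tested neural markers positive ones. The part of such marker differences in the members' result was not tested.

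The difference between the knockout effects was tested directly, as the Mettl3 effect minus the Mettl14 effect, on all 18 libraries. None of 38 members was called, against 0% of 16326 genes, 370 of which had an unadjusted p under 0.05, and no member did. DESeq2 and limma voom called 0 members, and 17 and 0 genes in all. The median difference was -0.37, against 0.03 for all genes, and -0.04 without replicate 2 of the Mettl14 knockout. Gbp3 had the smallest p, at -4.27 ± 2.18, followed by Ifit2 at -1.73 ± 1.17, Rsad2 at 3.55 ± 2.46 and Oasl1 at -3.93 ± 2.87, each with an adjusted p of 1 in edgeR. The data thus do not show that these genes responded differently to the loss of Mettl14 and of Mettl3.

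Another 136 genes of the pathway were read beside the members, from the ligands down to further induced genes. The 21 interferon genes were mostly at or near 0. Of these, 14 had no count in any library, and Ifnb1 (interferon beta) was counted only in replicate 2 of the Mettl14 line control, at 0.512. Their sum was at most 8.73 scaled CPM, in the GSK343 group, and at most 4.44 in the other groups. In the GSK343 group 20 of the 21 had no count, and 3 counts are up to 4.36 scaled CPM there. The receptors were present throughout. Ifngr2 had a median of 185 scaled CPM in the 15 libraries without GSK-J4, Ifnar1 86.1, Ifngr1 43.2, Ifnar2 35.6, Il10rb 18.6 and Ifnlr1 1.43. The summed receptors ran from 391 to 465 in the Mettl14 line controls, 269 to 332 in those of the Mettl3 line and 160 to 292 with GSK-J4. Downstream, Jak1 had a median of 516, Tyk2 29.0 and the feedback inhibitor Socs1 5.82. Of the adaptors of nucleic acid sensing, Mavs had 31.3 and Tmem173 (STING) 10.4. Receptors, kinases and adaptors were thus detected in every group, while the ligands were mostly at or near 0.

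No pathway gene of 91 tested was called by edgeR in the 3 comparisons of the Mettl14 line, where 4, 6 and 6 had an unadjusted p under 0.05, nor of 89 tested in the Mettl3 knockout, where none did. With GSK-J4, 12 of 89 were called against the untreated knockout, 11 lower and 1 higher, and 13 against the control, 12 lower and 1 higher. Slfn2, a growth-regulating schlafen protein, had 12.8, 28.8 and 15.6 scaled CPM in the untreated knockout and no count with GSK-J4, which is at least 37.5-fold lower (edgeR adjusted p 0.000639). Ly6e, a membrane protein that modulates viral entry, had 111, 75.8 and 82.5 against 4.80, 19.5 and 2.70, a fall by 3.23 ± 0.57 (edgeR adjusted p 0.00319). Shisa5 had 130, 157 and 121 against 48.0, 50.8 and 39.6, a fall by 1.51 ± 0.21 (edgeR adjusted p 0.000657). Znfx1, an RNA-binding antiviral helicase, had 87.3, 74.0 and 83.7 against 22.3, 26.2 and 29.5, a fall by 1.60 ± 0.29 (edgeR adjusted p 0.00358). None of these 4 overlapped between the groups, which their choice by smallest p favours. The share of all genes without overlap was not counted. Against the untreated knockout, estimates were positive for 24 of the 89 pathway genes and negative for 65. The 1 called higher was Traf3, an adaptor that links sensors to interferon production, by 0.83 ± 0.25 (edgeR adjusted p 0.0463). It was chosen after its value was seen. The share of pathway genes called, like that of the members, is to be read against the 13.2 and 11.5% of all genes.

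Between the controls, 3 of 100 tested pathway genes were called, all lower in the Mettl3 line, where 0.888% of all genes were called. Traf3 had 132, 130 and 109 scaled CPM in the Mettl14 line and 46.6, 45.2 and 64.6 in the Mettl3 line, a log2 difference of -1.25 ± 0.26 (edgeR adjusted p 0.016). Ccl5, a chemokine that attracts T cells, was present in all 9 libraries of the Mettl14 line, at 1.25 to 11.4, and in none of the 9 of the Mettl3 line. It was at least 19.3-fold lower in the Mettl3 line controls (edgeR adjusted p 0.0171). H2-D1, an MHC class I heavy chain, had 282, 426 and 388 against 171, 174.5 and 207, a difference of -0.99 ± 0.24 (edgeR adjusted p 0.0462). In none of the 3 did the controls of the lines overlap, which their choice as called genes favours.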

How the data were processed

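Trizol RNA from embryoid bodies was selected with oligo(dT) beads and made into libraries with the SMARTer Stranded Total RNA-Seq kit, per the labels' protocols. The submitters' processing notes name CASAVA, Trimmomatic 0.38, HISAT2 2.1.0, HTSeq and build mm10, and the deposited values are raw whole-number counts for each gene and library. From here, edgeR 4.0.16 (R 4.3.3) fitted robust quasi-likelihood models with TMM factors after its expression filter, for each line's 9 libraries, and for all 18 between lines. P-values were adjusted over all tested genes by Benjamini-Hochberg, with 0.05 as threshold. The fits of the 2 lines were also run on simulated counts. These had a smaller spread between libraries than either line's fit found, and changes only outside the lowest-level genes. The simulation therefore does not show how the fits do at the spread of these data, for low-count members or for all 18 libraries. Alternatives used DESeq2 1.42.0, limma 3.58.1 voom with quality weights, other scaling, no low-count filter, a replicate block, other sets of libraries, thinning to equal depth and leaving out each library. A fit without robust shrinkage was added after seeing the data. A group at 0 was set to 3 counts per library for bounds, which compare group means. Full statistics were given for called members or, below 4 calls, for the 4 with the smallest p, and for up to 4 called pathway genes per comparison. Members and lists were chosen with earlier results of these data known. Gene positions are from GENCODE M21 on mm10, which matched 54409 of 54446 identifiers, and promoters from RefSeq GRCm38.p6. Library totals ran from 721853 to 32540164 counts.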

Additional observations from a re-analysis of the deposited data

How the results depend on the processing

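No called member reversed in any alternative that was run. The members' median changed sign for the Mettl14 knockout, at -0.06 without its replicate 2, and for GSK343 against control, at -0.05 without GSK343 replicate 2, -0.02 with the replicate block and -0.03 after thinning; for the Mettl3 knockout it ran from -0.21 to 0.1 when 1 library was left out. Without a low-count filter, 1 member was called in each comparison of GSK343, with the untreated knockout and with the control. For GSK-J4 against the untreated knockout, members called numbered 1 with limma voom, library totals only, no low-count filter or the replicate block, 0 with only the groups compared and 4 with all 18 libraries, and 0 to 4 when 1 library was left out. Against the control they numbered 4 with DESeq2, 1 with limma voom, no low-count filter, the replicate block or only the groups compared, 5 with all 18 libraries, and 1 to 4 when 1 library was left out. Between the line controls they numbered 3 with limma voom, 0 with the replicate block, 2 with only the groups compared, 0 after thinning, and 0 to 1 when 1 library was left out. The labels do not say whether same-numbered libraries were paired. Over genes at a mean of 5 scaled CPM or more, deviations of same-numbered libraries correlated at -0.237 to 0.199 in the Mettl14 line. In the Mettl3 line they correlated at -0.0983 to 0.15. The numbers were therefore not taken as pairs, although replicate 2 was highest for the most members in all 3 groups of the Mettl14 line. That count was not made over all genes. All-gene calls ranged over the alternatives from 0 to 5 for the Mettl14 knockout, 0 to 56 and 3 to 70 for GSK343 against knockout and control, 0 to 6 for the Mettl3 knockout, 961 to 3700 and 841 to 3463 for GSK-J4, 77 to 859 between lines and 0 to 17 for the difference of knockout effects. Psmb8 had too few counts to be tested after thinning. In the 2 shallowest libraries 3 counts are 2.64 and 4.36 scaled CPM, above the level of most low members, so absence there is not informative.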
